A study of Mus musculus with 8 samples.

Results

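Ucp2 encodes uncoupling protein 2, a carrier of the mitochondrial inner membrane. Its peaks were examined in a crosslinking and immunoprecipitation (CLIP) study of Zmat3, an RNA-binding zinc finger protein and p53 target. Members were all called peaks on the plus strand of chromosome 7 whose midpoint lay in the RefSeq span of Ucp2 (gene ID 22228), 100493337–100499629 on mm10. The rule gave 74 entries of the 978429 in 7 peak lists. They are 37 distinct peaks, each listed once over input and once over the knockout immunoprecipitate (IP). Ucp2 was picked because many of its peaks lay above the knockout IP without a rise over input, so those values are a description here and carry no test.

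The cells were embryonic fibroblasts of the mouse that carry E1A and the oncogene HrasG12V. The 3 controls had the genotype Cas9+;E1A;HrasG12V, with the guides sgNegative control EV, SPA and ACOCA in controls 1, 2 and 3. They were kept for 10 days after 3 days of puromycin. A single Zmat3-/-;E1A;HrasG12V line without a guide was the knockout, and its label names no Cas9. All 4 IPs used an anti-Zmat3 antibody on UV-crosslinked cells, with RNA taken from 35 to 110 kDa of the gel, and each had an input. Since the knockout is 1 line, loss of Zmat3 cannot be told apart from other differences of that line, among them Cas9, the guide and the selection.

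Uncoupling proteins belong to the SLC25 family of mitochondrial carriers. Ucp1 dissipates the proton gradient to make heat in brown fat, whereas Ucp2 is found in many tissues and exports 4-carbon metabolites such as malate and aspartate in exchange for phosphate. It has been studied as a regulator of mitochondrial oxidant production and of glutamine use, and it is abundant in macrophages and other immune cells.

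Each peak carried the authors' log2 fold of the IP over its comparator and a −log10 p-value. A peak is called enriched here where both numbers reach 3 or more. The lists over input held 129323, 153768 and 122284 peaks in controls 1, 2 and 3, beside 167648 in the knockout, and they give no read counts, so read depth is unknown. Of 10 fibroblast markers, 4, 5 and 3 had a called peak in the controls and 4 in the knockout, with 82 to 109 peaks per control and 105 in the knockout. Pdgfrb had 16, 12 and 10 peaks in the controls and 2 in the knockout, whereas Fn1 had 70, 74 and 59 beside 79 and Vim 15, 18 and 13 beside 21. Relative to the list median, the median log2 fold over the knockout IP was −2.03, −1.75 and −2.0 for Fn1. It was −2.26, −1.02 and −2.62 for Vim, so both were opposite in sign to Ucp2. Pdgfrb had 1.00, 1.42 and 1.17, the same sign as Ucp2. Pdgfra had 0.50 in control 1 and −0.58 in control 2. Col1a1, Col1a2, Thy1, S100a4 and Dcn had no called peak in any library. Of 8 macrophage and haematopoietic markers, Cd68 alone was called, with 1, 3 and 2 peaks in the controls and 2 in the knockout, while Ptprc, Adgre1, Csf1r, Lyz2, Tyrobp, Itgam and Spi1 were at 0. Of 4 epithelial markers, 1, 2 and 2 were called in the controls (9 to 12 peaks) and 3 in the knockout (19 peaks), with Krt8 at 0 in every library. Of 5 adipocyte markers, Lpl alone had peaks, 5 in control 1 and 11 in control 3. Zmat3 transcripts themselves had 42, 48 and 39 peaks in the controls and 38 in the knockout line, and since the deleted part is not given, this does not check the label. The part of these marker differences in the Ucp2 values was not tested.

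The first Ucp2 site lay at the annotated start of the gene, and its first bases are covered by RefSeq's promoter window on GRCm38.p6. The upstream stretch is shown because it is the DNA next to that site, with a GC box in capitals. The shorter stretch is the RNA-sense sequence, within that window, that the peaks of all 3 controls covered.
Ucp2 upstream, chr7:100493108-100493336, plus strand: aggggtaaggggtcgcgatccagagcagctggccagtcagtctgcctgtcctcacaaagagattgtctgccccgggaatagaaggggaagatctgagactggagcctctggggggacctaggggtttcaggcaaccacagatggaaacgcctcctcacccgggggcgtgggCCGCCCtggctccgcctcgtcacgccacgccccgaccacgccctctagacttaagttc
Ucp2 first site, chr7:100493382-100493407, plus strand: gtcgggtcgccagcttcctgggcagc
The upstream stretch is 229 bases long with a GC content of 63.3%, against a median of 52.0% over the same part of 32851 RefSeq promoter windows. Searched on both strands, GGGCGG occurred 1 time, as its reverse complement CCGCCC, and 29.7% of all windows held it. The letters TATAAA (in 11.7% of windows), CACGTG (5.29%) and TGANTCA (6.33%) occurred 0 times in these 229 bases.

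Ucp2 was called in every control IP and in no position of the knockout IP. Controls 1, 2 and 3 had 11, 13 and 13 called peaks, a mean of 12.3 ± 1.15 (SD, n = 3), and the knockout had 0. The groups do not overlap in this number, although the knockout list was the longest of the 4 over input. The minus strand of the span held 0 called peaks in every list. Peak number depends on both the amount of RNA and the amount recovered, and no called peak does not mean no reads.

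The minimum of 11 used next is the lowest control count of Ucp2 itself. Of the 2703 protein-coding genes with at least 11 called peaks over input in each control, 2 (0.074%) had no knockout peak, Ucp2 and Zfp536. Zfp536, which encodes a zinc finger protein and is named here after its values were seen, had 120, 14 and 68 peaks in the controls. With a minimum of 10, Aatk, a kinase gene, joined them (3 of 2957 genes, 0.101%), and with a minimum of 5 there were 14 such genes of 4861 (0.288%). Over the 2703 genes, the number of knockout peaks divided by the mean number of control peaks had a median of 1.12, and 5% of genes lay below 0.540. The count of knockout peaks was not what the rule of choice used, but it belongs to the same pair of libraries as the log2 folds over the knockout IP.

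**Figure D1:**
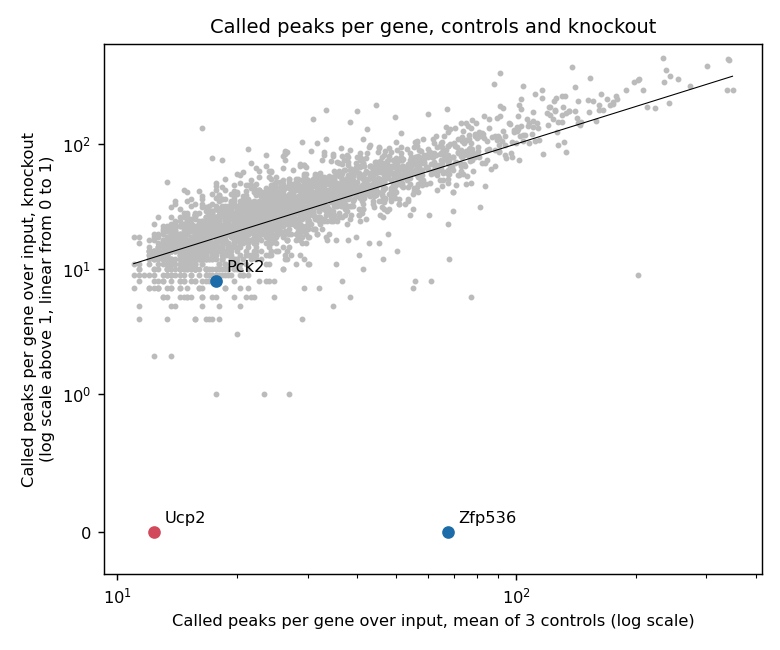
Called peaks over input per gene in the knockout (vertical axis, log scale above 1 and linear from 0 to 1) against the mean of the 3 controls (horizontal axis, log scale) for 2703 protein-coding genes with at least 11 peaks in each control; the line marks equal numbers. Ucp2 and Zfp536 sit at 0 on the knockout axis, and Pck2 had 8 knockout peaks.

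The control peaks were short. Their width ran from 13 to 95 nt in control 1, from 27 to 123 in control 2 and from 24 to 146 in control 3. The median Ucp2 width was 37, 64 and 35 nt, beside 53, 50 and 47 nt for all peaks of these lists. Together they covered 8.17%, 13.0% and 11.4% of the 6293 bases of the gene, or 1.75, 2.07 and 2.07 peaks per kb.

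Over the knockout IP, every Ucp2 peak lay above the middle of its list. In control 1 the 11 log2 folds ran from 2.18 to 5.12 with a median of 3.41, in control 2 the 13 values ran from 2.10 to 5.38 with a median of 3.82, and in control 3 the 13 values ran from 2.58 to 4.75 with a median of 3.75. The medians of all called peaks in these lists were 1.18, 0.88 and 1.00, so that 11 of 11, 13 of 13 and 13 of 13 Ucp2 peaks exceeded them. The 3 controls overlapped almost completely in range. Enriched peaks numbered 5, 11 and 8, a mean of 8.0 ± 3.0 (SD, n = 3), where 0.621%, 1.09% and 0.648% of all peaks of the lists were enriched. These lists are the contrast Ucp2 was chosen on, so nothing is read from that distance.

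Of the 37 peaks, 30 reached 3 in log2 fold and 27 in −log10 p-value, with 24 reaching it in both. Of the rest, 6 missed the −log10 p-value threshold alone, 3 the log2 threshold alone and 4 missed both. Some Ucp2 peaks of a list shared the same log2 fold. There were 9 different values among the 11 peaks of control 1, 10 among 13 in control 2 and 11 among 13 in control 3. The 3 lists share the 1 knockout library, and the sources used here do not say what value a peak gets where the knockout has no reads. The size of these log2 folds may depend on that treatment, since no knockout peak was called in the gene.

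Over input, the same peaks lay low. In control 1 the log2 folds ran from −1.27 to 1.41 with a median of 0.21, in control 2 from −0.61 to 3.19 with a median of −0.10, and in control 3 from −1.04 to 1.01 with a median of −0.46. The medians of all peaks over input were 0.90, 0.60 and 0.60, and 2 of 11, 1 of 13 and 2 of 13 Ucp2 peaks exceeded them. Above a log2 fold of 0 were 7 of 11, 6 of 13 and 3 of 13 Ucp2 peaks. Among all peaks of these lists, 22350 of 129323, 30056 of 153768 and 30998 of 122284 lay below 0. Enriched peaks over input numbered 0, 1 and 0, where 1.02%, 1.05% and 0.494% of all peaks were enriched, and 0.316% in the knockout, in which Ucp2 had no peak.

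At each of the 37 peaks the log2 fold over the knockout IP exceeded that over input. The difference ran from 1.28 to 5.57 with a median of 3.53. Ucp2 was picked on this contrast, so the count is a description, and the share over all peaks was not computed. The list medians were also higher over the knockout IP (1.18, 0.88 and 1.00) than over input (0.90, 0.60 and 0.60). The ratio over input sets the IP against RNA of the same line, whereas the ratio over the knockout IP sets 2 lines against each other. The level of Ucp2 RNA in the inputs was not analysed here. In bulk cells, fewer cells that express a gene and less RNA per cell cannot be told apart. A ratio of control input to knockout input could not be derived from the lists either, because this needs a knockout peak in the gene.

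**Figure D2:**
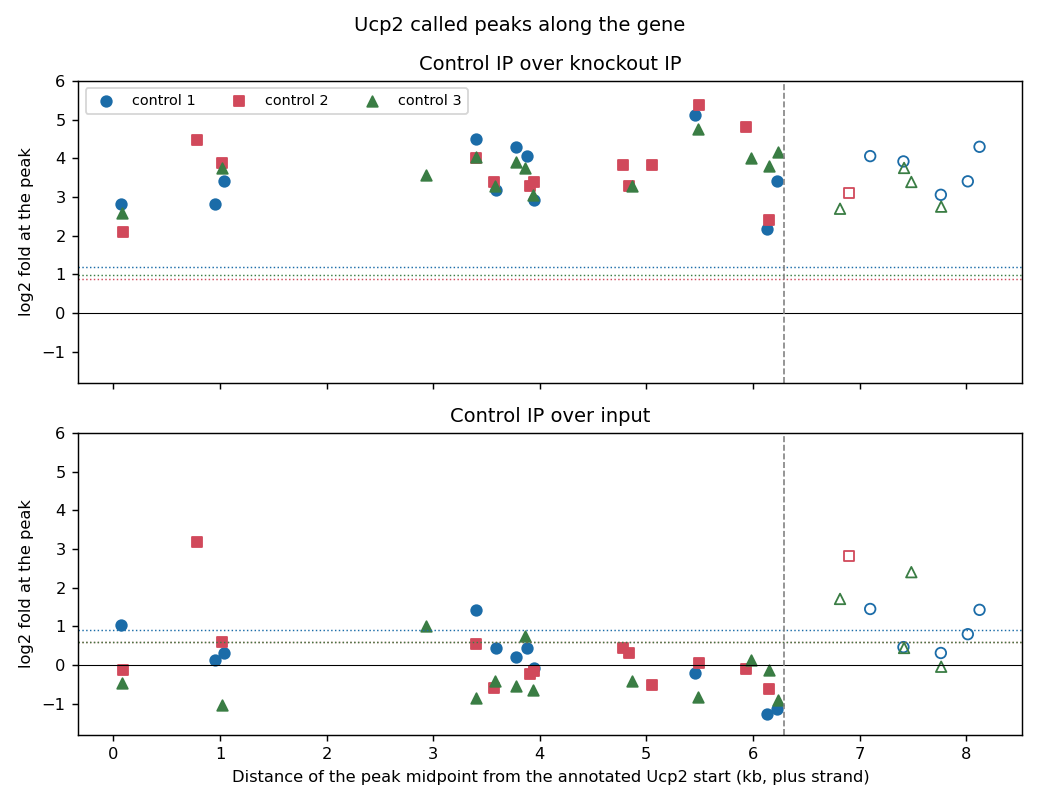
Log2 fold at each called Ucp2 peak against the distance of its midpoint from the annotated start (kb), over the knockout IP (top) and over input (bottom); colours and shapes mark controls 1 to 3, dotted lines the median of each list, the dashed line the annotated end and open symbols peaks beyond it. All peaks inside the gene lie between 2.10 and 5.38 in the top panel, while in the bottom panel 16 of 37 lie above 0.

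The peaks fell into 16 sites when overlapping peaks of different controls were merged. Of these, 7 had a peak in all 3 controls, 4 in 2 controls and 5 in 1 control. Where all 3 controls had a peak, the mean log2 fold over the knockout IP lay between 2.50 and 5.09, and that over input between −0.67 and 0.37. An enriched peak over the knockout IP was present in all 3 controls at 3 sites, in 2 controls at 4 sites, in 1 control at 6 sites and in none at 3 sites. No site was enriched over input in more than 1 control.

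The highest site lay 5414 to 5554 bases from the start, at 100498751–100498891. Its log2 folds over the knockout IP were 5.12 in control 1, 5.38 in control 2 and 4.75 in control 3, giving a mean of 5.09 ± 0.32 (SD, n = 3). Over input the values were −0.21, 0.06 and −0.82, a mean of −0.32 ± 0.45 (SD, n = 3). All 3 controls thus placed this site highest among their own Ucp2 peaks over the knockout IP, and none placed it above the median of its list over input.

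The next highest site with a peak in every control was at 100496721–100496759, in the middle of the gene. It had 4.51, 3.998 and 4.04 over the knockout IP, a mean of 4.18 ± 0.28 (SD, n = 3). Its values over input were 1.41, 0.55 and −0.85, so control 1 lay above its list median and the other two below theirs. A further site enriched over the knockout IP in all 3 controls was at 100496875–100496944, with 3.18, 3.38 and 3.28, a mean of 3.28 ± 0.10 (SD, n = 3). Over input this site had 0.44, −0.60 and −0.40. Its 3 values over the knockout IP differed by less than those of any other site with a peak in all 3 controls.

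The site at the gene start, 100493363–100493466, of which 26 bases within the promoter window are printed above, had the lowest mean among the sites with a peak in every control. Its log2 folds over the knockout IP were 2.82, 2.10 and 2.58, a mean of 2.50 ± 0.37 (SD, n = 3), and it was enriched in none. Its −log10 p-values of 6.02, 2.93 and 4.73 passed 3 in controls 1 and 3, so the log2 fold set the outcome there. Over input it had 1.03, −0.12 and −0.46.

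A peak of control 2 at 100494081–100494159 was the only Ucp2 peak enriched over both comparators. Its log2 fold was 4.47 against the knockout IP and 3.19 against input, with −log10 p-values of 5.23 and 3.69. Controls 1 and 3 had no called peak at that site, so this enrichment over input was seen in 1 of 3 controls.

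The last 3 sites lay close to the annotated end. At 100499444–100499532 the values over the knockout IP were 2.18, 2.41 and 3.81, a mean of 2.80 ± 0.88 (SD, n = 3), with control 3 enriched and the other two not. At 100499235–100499387, controls 2 and 3 had 4.82 and 3.998, and control 1 had no called peak. The most distal site, 100499552–100499592, had 3.41 in control 1 and 4.17 in control 3 over the knockout IP, beside −1.13 and −0.91 over input. Values high over the knockout IP thus stood next to some of the lowest over input.

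Along the gene, peaks were spread unevenly. In 5 equal segments of the span from start to end, the 3 controls together had 8, 0, 8, 10 and 11 peaks. The widest stretch without a peak ran for 1877 bases, from 1040 to 2916 bases after the start. Whether a stretch is exon or intron was not analysed here. The median log2 fold over the knockout IP over these pooled peaks was 3.11 in the first segment, 3.74 in the third, 3.34 in the fourth and 3.998 in the last. Over input these medians were 0.22, 0.02, 0.07 and −0.50. These pooled medians were all above the list medians over the knockout IP and below them over input, although the peaks of control 1 in the third segment had a median of 0.93 over input, above the 0.90 of its list. In the first segment 2 of 8 peaks were enriched over the knockout IP, and in the other three 7 of 8, 7 of 10 and 8 of 11.

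Plus-strand peaks continued past the annotated end. Between 503 and 1863 bases beyond it, controls 1, 2 and 3 had 5, 1 and 4 called peaks and the knockout had 0. These lie just outside the rule and are not counted above. Their log2 folds over the knockout IP ran from 3.06 to 4.30 in control 1 and from 2.70 to 3.75 in control 3, and the single peak of control 2 had 3.10, with 3 peaks of control 1 enriched and 0 of the others. Over input they ran from 0.31 to 1.45 in control 1 and from −0.04 to 2.40 in control 3, and the control 2 peak had 2.82. The last peak inside the annotated end, in control 3, had 4.17 over the knockout IP, and the first beyond it, in the same control, had 2.70. The next protein-coding gene in that direction, Dnajb13, lies on the minus strand and had 0 called peaks in all 7 lists.

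To set Ucp2 beside other genes, the median log2 fold of each gene's peaks was taken relative to the median of its list, called the centred gene median. Ucp2 had 2.22, 2.94 and 2.75 over the knockout IP in the controls in turn, which gives a mean of 2.64 ± 0.37 (SD, n = 3). Over input it had −0.69, −0.71 and −1.06, a mean of −0.82 ± 0.21 (SD, n = 3). All 3 controls thus placed Ucp2 above the middle over the knockout IP and below it over input, which is what the gene was chosen for. The SD over the knockout IP holds no variation of the knockout, since the 3 lists share the same knockout library.

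Among the 4861 protein-coding genes with at least 5 called peaks in each control list, Ucp2 ranked 1 in each of the 3 controls over the knockout IP. The next values in controls 1 to 3 were 1.87, 2.58 and 2.39. Vgf, a neuropeptide precursor gene with 0 called peaks in control 2, is not among these genes. Its values of 2.99 and 3.29 over the knockout IP in controls 1 and 3 were above those of Ucp2. Over input, 9.03%, 5.12% and 1.95% of genes lay below Ucp2. A centred median above 1 over the knockout IP in all 3 controls was found in 10 genes (0.206%), and one above 2 in Ucp2 alone (0.0206%). Many genes were tied at exactly 1 in controls 1 and 2, and this strict cut leaves them out. The number of genes above 1 thus depends on the cut, and the number at 1 or more was not computed. Of the 10, Ucp2 and Pck2 were also below 0 over input in all 3 controls, 2 genes or 0.0411%. These ranks restate what Ucp2 was chosen for and are no test. An exact permutation test of 3 libraries against 1 could not give a p below 0.25.

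**Figure D3:**
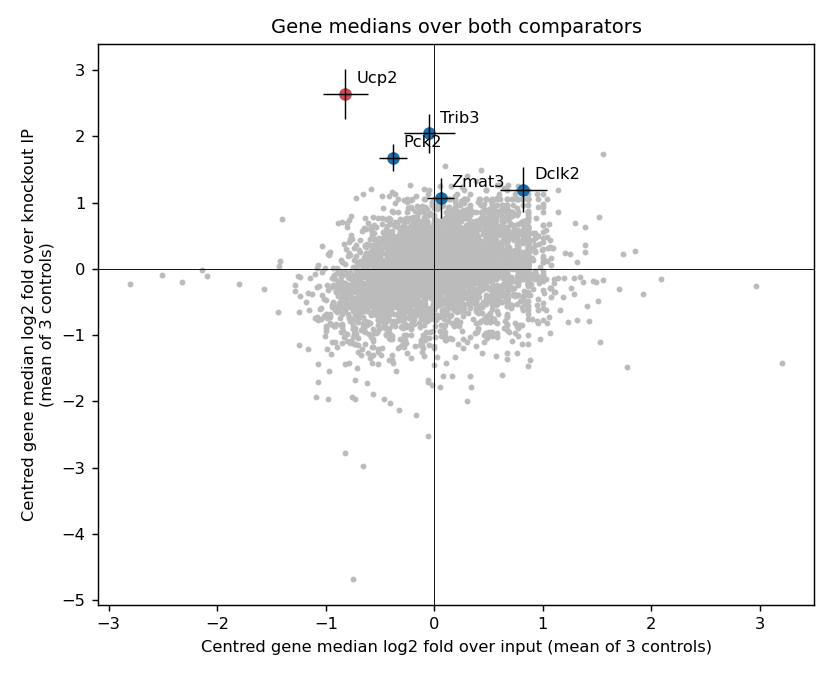
Centred gene median log2 fold over the knockout IP (vertical) against that over input (horizontal), each the mean of 3 controls, for 4861 protein-coding genes; error bars on named genes are SD over the 3 controls. Ucp2 sits at 2.64 and −0.82, above the other genes on the vertical axis.

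The genes around Ucp2 had lower values over the knockout IP. The 5 nearest protein-coding genes on each side with a called peak in every list, the knockout included, lay 23.2 to 787 kb away and had means over the knockout IP from −1.33 to 0.90, with a median of 0.33. C2cd3, which encodes a centriole protein and is the closest of them, had 0.00, 1.00 and 0.38 in controls 1 to 3, with 12 peaks in the knockout. Pold3, a subunit gene of DNA polymerase delta, had the highest mean, from values of 0.42, 0.71 and 1.58. Rnf169, encoding a ubiquitin ligase of the DNA damage response, had the lowest, from −1.41, −1.32 and −1.24, with 86 knockout peaks beside 36 to 59 in the controls. The values of the 10 genes reached 1.58, beside a lowest Ucp2 value of 2.22, which is a description since Ucp2 was chosen for high values here. Asking for a called peak in the 6 control lists only, with no minimum in the knockout, gave the same 10 genes, 0 of them without knockout peaks.

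The neighbours described next lay between these. The prolyl hydroxylase gene P4ha3 had a mean of 0.63 ± 0.55, the phosphatase methylesterase gene Ppme1 −0.32 ± 0.77, and the Golgi GTPase gene Rab6a −0.19 ± 0.48 (SD, n = 3). Fam168a had 0.79 ± 0.10 and the autophagy-related gene Atg16l2 had 0.77 ± 0.21 (SD, n = 3), and both were above 0 in each control. The receptor gene Relt had 0.21 ± 1.11 (SD, n = 3). P4ha3 and Relt rest on 1 to 8 peaks per control.

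**Figure D4:**
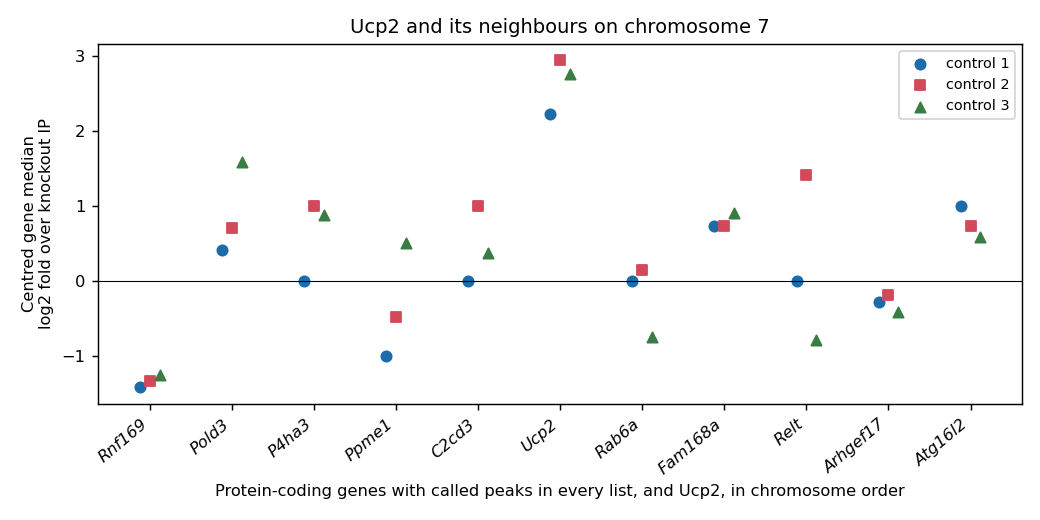
Centred gene median log2 fold over the knockout IP in each control (colours and shapes) for Ucp2 and the 5 nearest protein-coding genes on each side with called peaks in every list, in chromosome order and not to scale. Ucp2 lies at 2.22 to 2.94, and the neighbours lie between −1.41 and 1.58.

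The other uncoupling proteins could not be compared. Ucp3, the muscle-enriched paralogue that lies next to Ucp2 on chromosome 7 (100472991–100486432), and Ucp1, the brown fat paralogue, had 0 called peaks in all 7 lists. Of the 51 genes of the mitochondrial carrier list, which includes these paralogues, 20 had at least 3 called peaks in every list. Of these, 0 lay above 1 over the knockout IP in all 3 controls and 1 below −1, beside 0.0683% and 0.751% of 5857 genes. Ucp2 was left out of the list itself. Genes tied at exactly 1 are left out of the shares above 1 here as well. With a minimum of 3 peaks in the control lists only, the shares of all 6144 genes were 0.293% and 0.716%, and the numbers of members above 1 and below −1 were the same in each of the 4 lists. The median of the 20 measured carriers was 0.028, against 0.019 for the 5857 genes and 0.040 for the 6144 genes. The highest were Slc25a42, the mitochondrial coenzyme A carrier, with 0.15, 0.74 and 0.58, Slc25a33, a pyrimidine nucleotide carrier, with 0.46, 0.50 and 0.17, and Slc25a12, an aspartate-glutamate carrier, with 0.12, 0.00 and 0.91.

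Genes of glutamine and C4 metabolism, the pathway of the metabolites Ucp2 carries, had 1 of 13 measured members above 1 in all 3 controls and 0 below −1, with a median of −0.053, beside 0.0683% and 0.751% of all 5857 genes and a median of 0.019. That member was Pck2, the mitochondrial phosphoenolpyruvate carboxykinase, which had 1.85, 1.74 and 1.45. Asns, the asparagine synthetase, followed with 0.69, 0.83 and 0.75, and Psat1, an enzyme of serine synthesis, with 0.62, 0.68 and 0.58. These 3 genes were above 0 in every control over the knockout IP, and each was below 0 in every control over input, from −0.26 to −0.58. They were named for the highest means of the list over the knockout IP. The list was made with earlier results of these data known, and Pck2 was already a named gene. The 1 of 13 is therefore a description and no test. Over input, the median of the 13 measured members was −0.52, against 0 for all 5857 genes.

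Antioxidant genes of mitochondria had 0 of 9 measured members above 1 and 0 below −1, beside the same 0.0683% and 0.751% of all genes, with a median of −0.30. The highest was Txnrd2, the mitochondrial thioredoxin reductase, with 0.74, 0.00 and −0.12. Nnt, the transhydrogenase that makes mitochondrial NADPH, had −0.78, 0.00 and 0.58, and Gsr, the glutathione reductase, had −0.36, 0.00 and 0.17. Regulators of Ucp2 transcription had 0 of 6 above 1 and 0 below −1, beside 0.0683% and 0.751%, with a median of −0.037. Among them Ppargc1b, a coactivator of mitochondrial genes, had 1.00, 0.15 and 1.17, Foxo1 had 0.00, 0.28 and 0.17, and Smad4 had 0.00, −0.32 and 0.58. Foxo1 and Smad4 encode transcription regulators.

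Likeness to Ucp2 was measured as the Euclidean distance between centred gene medians over the 6 control lists (3 controls, 2 comparators), which share libraries. The nearest among the 4861 genes was Trib3, a stress-induced pseudokinase gene, at a distance of 1.89, followed by Pck2 at 2.00. Slc7a5, a large neutral amino acid transporter gene, was at 2.69, Mical1, encoding an actin-oxidising enzyme, at 2.72 and Cyb5r1, a cytochrome b5 reductase gene, at 2.75. The median distance over all genes was 4.90.

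Trib3 had 1.87, 1.87 and 2.39 over the knockout IP and −0.16, −0.21 and 0.22 over input. Its called peaks numbered 6, 13 and 7 in the controls, beside 4 in the knockout. Pck2 had −0.52, −0.28 and −0.34 over input, with 20, 15 and 18 control peaks and 8 in the knockout. Both genes therefore had knockout peaks where Ucp2 had none. Of the 5, Mical1 alone had 0 knockout peaks, with 6, 15 and 8 in the controls.

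**Figure D5:**
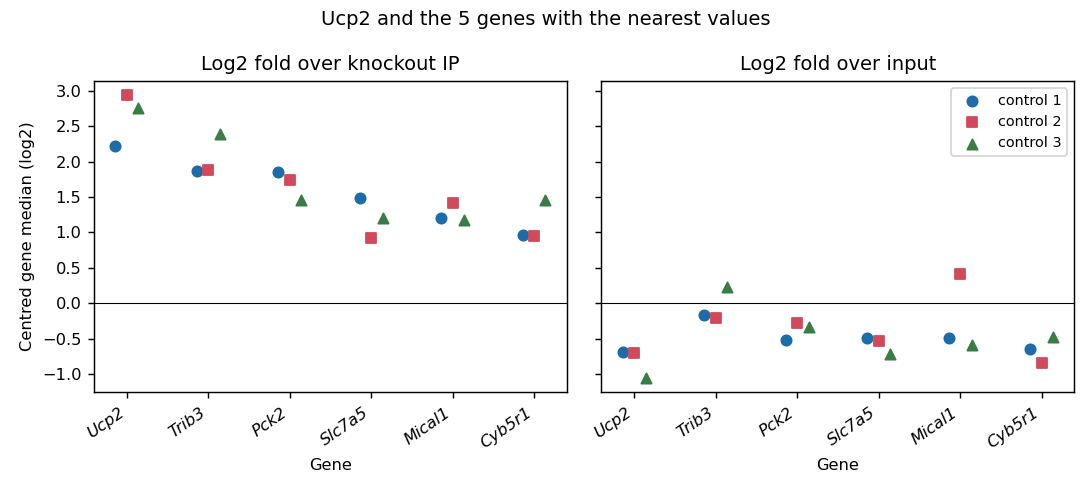
Centred gene median log2 fold over the knockout IP (left) and over input (right) in each control (colours and shapes) for Ucp2 and the 5 genes nearest to it. Over the knockout IP Ucp2 lies at 2.22 to 2.94 and Trib3 at 1.87 to 2.39.

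Some other genes with high values over the knockout IP had another pattern over input. Zmat3 itself had 1.42, 0.89 and 0.91 over the knockout IP and −0.02, 0.20 and 0.00 over input. Dclk2, a neuronal kinase gene, had 1.00, 1.00 and 1.58 over the knockout IP and 0.88, 1.00 and 0.58 over input, with 11 knockout peaks. Agap1, a long gene for an Arf GTPase-activating protein, had 1.15, 0.42 and 0.96 over the knockout IP and 0.64, 0.58 and 0.51 over input. Ucp2 lay below all 3 of these genes over input in each control. Vgf, without a peak in control 2, was below 0 over input in controls 1 and 3, as Ucp2 was. The differences between genes were not tested, since the libraries are shared by all genes and Ucp2 was chosen on these values.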

How the data were processed

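CLIP peak lists of 4 IPs were used, 4 over input and 3 over the knockout IP. They are on mm10, per the submitters' processing notes. The lists have no header. The deposited log2 fold and −log10 p-value of each peak were computed by the authors, as read from the values and layout; the latter reach at most 400. Peak caller, aligner, scaling between libraries, duplicate handling and read counts are not stated in the sources used here. Positions were made 1-based.

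Peaks were assigned by midpoint to protein-coding genes of RefSeq (GRCm38.p6) and left out where several spans matched. The gene's strand had to match where a promoter entry gives it (4408 of 21900 genes have none). Over input and over the knockout IP, 99.8% of peak positions of each control were identical. Gene medians were centred on the list median. Python 3.11.15 and pandas 2.3.3 were used. A constant shift added to all peaks of chosen genes in permuted values was recovered, which checks the code alone. The controls share a genotype and carry different guides, and whether they are independent lines is not stated. SDs are over the 3 controls.

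Members and lists were chosen with earlier results of these data known. Named genes were Ucp2, Ucp1, Ucp3, the 10 neighbours (1 is not reported singly here), the 5 nearest genes, up to 3 members per list with the highest mean over the knockout IP, and Zmat3, Pck2, Agap1, Vgf and Dclk2. Alternatives were other thresholds, summaries, spans and overlaps, and leaving out each control.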

Additional observations from a re-analysis of the deposited data

How the results depend on the processing

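Read depth is unknown, and each control value rests on 11 to 13 peaks. The mean number of Ucp2 peaks enriched over the knockout IP, 8.0 per control, was 3.33 with the log2 threshold raised to 4 and 3.33 with the −log10 p threshold raised to 5, and it ran from 6.50 to 9.50 when each control was left out. Over input, the mean of 0.333 became 0 under either stricter threshold and ran from 0 to 0.500 with each control left out, being 0 without control 2, which held the only such peak. Without centring, the mean Ucp2 median was 3.66 over the knockout IP and −0.12 over input. With each control left out, the centred values ran from 2.49 to 2.85 and from −0.88 to −0.70, and sites with a peak in all remaining controls numbered 8 to 10, beside 7 with all 3. With at least 10 peaks per gene, 3 of the 5 nearest genes were kept (Pck2, Slc7a5 and Cyb5r1). The other alternatives kept the direction of the 2 gene medians and stayed within 1.5 times for counts. The extension of the span by 3 kb downstream, the gene lists and neighbours without a minimum in the knockout and the likeness over 6 lists were chosen after seeing the data; the last was needed because the knockout list has no Ucp2 peak. For the same reason the planned ratio of control input to knockout input was not run. No paired analysis was possible because the results come from no test; the values over input already set each IP against the input of its own line, and those over the knockout IP share 1 knockout library.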

Other observations

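Absence of knockout peaks was also seen in genes for which the controls differed among themselves. Vgf, a neuropeptide precursor gene, had 6 peaks in control 1, 0 in control 2, 9 in control 3 and 0 in the knockout. Its centred medians in controls 1 and 3 were 2.99 and 3.29 over the knockout IP and −0.57 and −0.46 over input. Lpl, the lipoprotein lipase gene, had 5, 0 and 11 peaks and 0 in the knockout, with 1.00 and 1.17 over the knockout IP in controls 1 and 3. In both genes control 2 was without peaks like the knockout, whereas Ucp2 had 11 to 13 peaks in each control. Lpl and the contrast with Ucp2 were chosen after the values were seen, and no test was made.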
